A study of Mus musculus with 18 samples.

Results

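The EGR factors and NAB corepressors examined here are the 5 mouse genes *Egr1*, *Egr2*, *Egr3*, *Nab1* and *Nab2*, chosen by gene symbol as a family and not by a threshold on measured values, of 45706 genes listed in each of 18 RNA-seq libraries and of 12255 genes that could be tested. Earlier results of these data were known when the 5 genes were chosen. The study asked whether ibrutinib, an inhibitor of the kinase BTK, acts directly on exhausted CD8+ T cells. Purified CD8+ T cells of OT-I mice, which carry a transgenic receptor for an ovalbumin peptide, were cultured with IL-7 and IL-15. Repeat peptide stimulated cells received 10 ng/ml of the peptide every day until day 5 and, by the study's methods, still had peptide in their medium during treatment, while single peptide stimulated cells met it only at the start and were then rested. Ibrutinib at 1 µM, or DMSO alone, was then present from day 5 to day 8, when RNA of live cells was sequenced.

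The groups are repeat DMSO (4 libraries), repeat ibrutinib (5), single DMSO (5) and single ibrutinib (4). The labels give strain OT-1 WT for every library, and the ages of the mice are not given in the sources used here. Libraries carry 6 different genotype entries, taken here as experiments and named by the letters A to F. All 4 groups were sequenced in A to D, whereas E supplied repeat ibrutinib alone and F supplied single DMSO alone. The entry of A holds the words left over, and that of F the letters PKC, which the labels do not explain. The entry of B to E mentions a btk knockout. Since the study's account of its RNA-seq has no btk deficient cells, it was taken to name the experiment and not the cells. *Btk* itself had at most 27 counts in any library and cannot settle this. The exhausted state is one induced in culture by peptide, on cells with a single transgenic receptor.

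All genes are given on GRCm38. *Egr1* (ENSMUSG00000038418) lies at chr18:34859823-34864984 on the plus strand. *Egr2* (ENSMUSG00000037868) lies at chr10:67535475-67542188 and *Egr3* (ENSMUSG00000033730) at chr14:70077203-70082614, both on the plus strand. *Nab1* (ENSMUSG00000002881) lies at chr1:52457294-52500679 and *Nab2* (ENSMUSG00000025402) at chr10:127660918-127668568, both on the minus strand. *Nab2* overlaps 3 genes of the opposite strand, *Stat6* by 40 bases, *Nemp1* by 1668 bases and the antisense gene *Gm16229* by 1646 bases. The libraries were made with a kit that marks the strand, but the strand setting of the counting is not given in the sources used here.

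EGR proteins are zinc finger transcription factors whose genes are switched on within minutes of T cell receptor signalling, through the ERK kinases and serum response factor and with help from calcium signals. EGR2 and EGR3 are known in T cells for restraining activation and for inducing genes of anergy, the state of a cell that met antigen and no longer responds fully. NAB1 and NAB2 bind EGR1, EGR2 and EGR3 and mostly repress their activity, in part by bringing in the NuRD chromatin remodelling complex. *Nab2* is itself known as a gene induced by EGR factors, while *Nab1* is usually described as steadily expressed.

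RefSeq promoter windows, each reaching from 250 bases before to 50 bases after a transcription start, were at hand for 3 of the 5 genes, *Egr2*, *Nab1* and *Nab2*. Both strands were searched for the CArG box bound by serum response factor, for GCGTGGGCG, to which EGR zinc fingers bind, and for TGACG, the core of a cyclic AMP response element. The CArG box occurs in 1.63% of 32851 such mouse windows, GCGTGGGCG in 0.612% and TGACG in 20.8%. The *Egr2* sequence is shown because it holds a CArG box, the motif of serum response factor at immediate early genes, and the *Nab1* sites because they match the EGR binding site. The *Egr2* stretch (GRCm38.p6, chr10:67537619-67537868, plus strand) ends just before a start of transcription and lies in no annotated exon. *Egr2* has 5 windows, and the window with its start at 67535499 holds 0 CArG boxes. Among the windows the printed stretch was taken because it holds TGACG and lies in no exon. Capitals mark a CArG box that begins 72 bases before the start and TGACG matches that begin 111 and 55 bases before it, the latter on the opposite strand.
Egr2 promoter: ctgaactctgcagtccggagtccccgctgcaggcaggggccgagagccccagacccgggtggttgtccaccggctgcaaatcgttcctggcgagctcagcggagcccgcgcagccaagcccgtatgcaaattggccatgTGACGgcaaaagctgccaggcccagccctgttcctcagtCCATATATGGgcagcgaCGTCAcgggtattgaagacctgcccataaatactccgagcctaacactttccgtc
The *Nab1* sites (GRCm38.p6, minus strand, chr1:52500571-52500599 and chr1:52500539-52500567) begin 141 and 109 bases before the RefSeq start, in bases that GENCODE annotates as part of the first exon. Capitals mark the EGR site, read on the opposite strand in the upstream match.
Nab1 upstream site: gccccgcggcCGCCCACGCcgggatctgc
Nab1 downstream site: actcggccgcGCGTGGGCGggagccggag
Of all windows, 7 hold GCGTGGGCG more than once. The *Nab1* window also holds 7 GC boxes, a motif found in 35.7% of all windows, and GGGCGG overlaps both marked sites. The *Nab2* window holds no CArG box, no GCGTGGGCG and no TGACG. These matches describe the letters of the sequence and say nothing of whether a factor was bound in these cells.

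Each library held 23445922 to 51995372 expected counts, the authors' estimates of the reads from each gene. All 5 genes passed the filter on low counts, with at least 21 counts in any library. The 5 CD8 T cell markers (*Cd8a*, *Cd8b1*, *Cd3d*, *Cd3e* and *Cd3g*) were abundant in every library, with a summed level of 2258 to 3152 TPM (transcript abundance per gene length, scaled to a fixed total). Of 6 B cell markers only *Cd79b* exceeded 1 TPM, with sums of 1.54 to 2.94 TPM in repeat DMSO, 1.25 to 4.18 in repeat ibrutinib, 3.18 to 7.1 in single DMSO and 3.89 to 5.9 in single ibrutinib. The 6 markers of macrophages and dendritic cells summed to at most 6.29 TPM, with *Lyz2* at up to 5.92, *Zbtb46* at up to 2.31 and *Csf1r* at or below 0.03. The 3 CD4 T cell markers summed to 15.4 to 20.8 TPM in repeat DMSO, 5.38 to 16.1 in repeat ibrutinib, 1.87 to 11.2 in single DMSO and 2.54 to 12.3 in single ibrutinib. *Cd4* itself stayed at or below 0.17 TPM, while *Zbtb7b* reached 20.7 TPM and *Foxp3* 8.49 TPM. The NK cell markers *Ncr1* and *Klrb1c* reached 11.4 TPM in repeat DMSO, 25.6 in repeat ibrutinib and 2.73 in the single peptide groups, with *Klrb1c* at up to 25.2 TPM and *Ncr1* at up to 1.16. *Hbb-bs* was at 0 in all libraries, and *Hba-a1*, the other red cell marker, reached 1.84 TPM. The CD4 and NK sums reached higher values in repeat peptide stimulated cells, and their part in the differences below was not tested. In RNA of whole cultures, fewer cells expressing a gene and less RNA of it per cell cannot be told apart.

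In DMSO, repeat peptide stimulated cells had far more *Egr1*, *Egr2*, *Egr3* and *Nab2* RNA than single peptide stimulated cells, and about as much *Nab1*. *Egr3* differed most, by 9.43-fold, followed by *Egr2* (5.43-fold), *Nab2* (3.62-fold) and *Egr1* (3.56-fold), while *Nab1* differed by 1.06-fold. The places of *Nab2* and *Egr1* depend on single DMSO library C, without which the log2 fold change of *Egr1* was 2.49. Genes were called when their adjusted p in edgeR's quasi-likelihood test (Benjamini-Hochberg over all 12255 genes) was under 0.05, their mean normalized count was at least 50 and their absolute log2 fold change was above 0.2. By this rule 4 of the 5 genes were called higher and 0 lower, in a comparison where 22.8% of all tested genes were called higher and 24.2% lower. The median log2 fold change was 1.86 over the 5 genes and 0.00 over all tested genes. The labels do not say more of how the libraries of a group were kept apart than these entries, so the tests measure the spread between libraries.

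**Figure D1:**
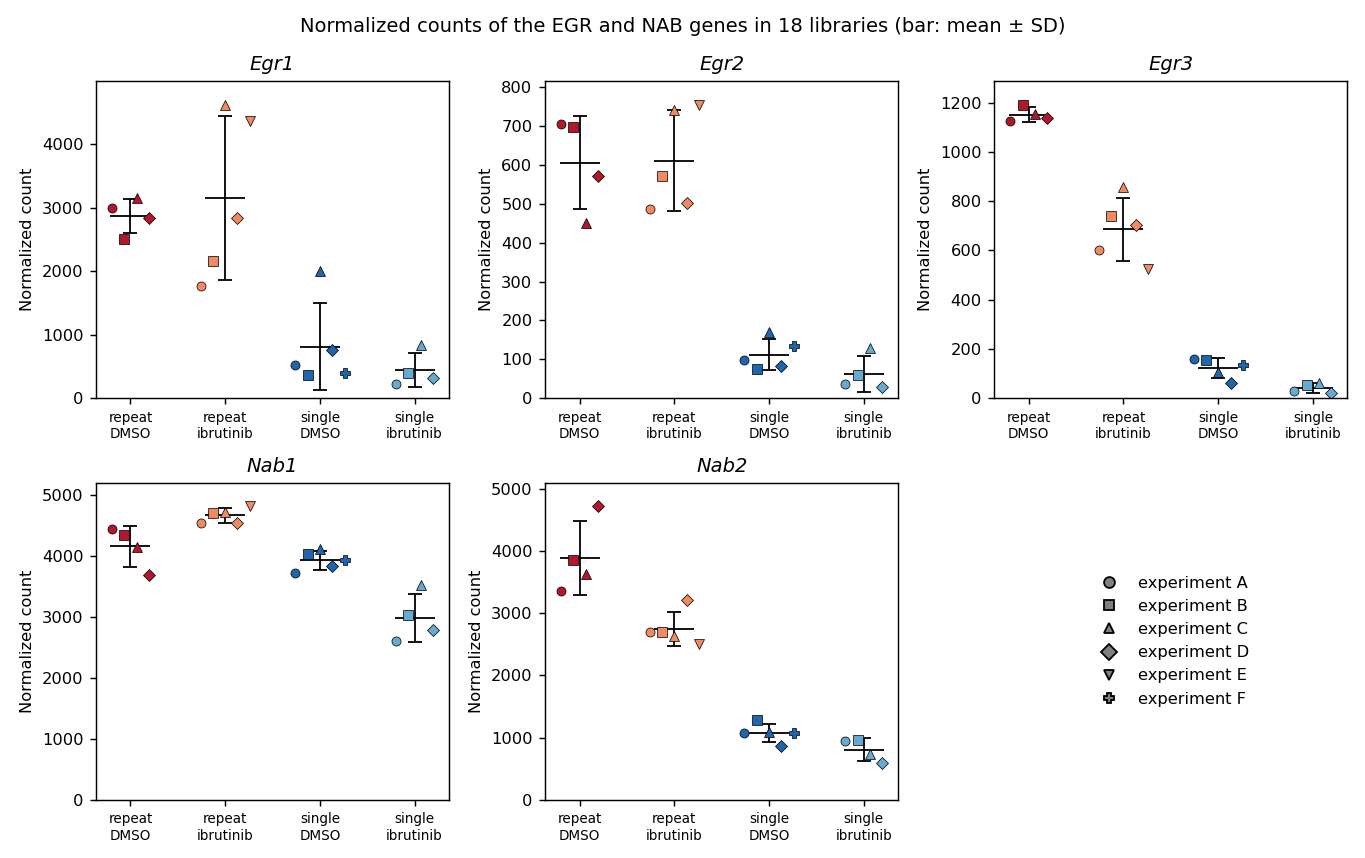
Normalized counts (linear axis from 0) of *Egr1*, *Egr2*, *Egr3*, *Nab1* and *Nab2* in 18 libraries; each symbol is a library, its shape the experiment, and the bars are mean ± SD of 4 or 5 libraries. The repeat DMSO libraries of *Egr3* sit between 1125 and 1193 and all single peptide libraries of it at or below 158.5, while *Nab1* stays between 2597 and 4815 throughout.

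*Egr3* encodes a factor whose targets include negative regulators of T cell receptor signalling. Its normalized counts (expected counts scaled to a common library size) were 1125, 1193, 1154 and 1137 in the repeat DMSO libraries A, B, C and D. The single DMSO libraries A, B, C, D and F had 158.5, 153.6, 104.5, 62.0 and 132.9. The lowest repeat DMSO library thus lay far above the highest single DMSO library, and the repeat DMSO libraries differed little among themselves (coefficient of variation 2.57%). The log2 fold change was 3.24 (SE 0.269, adjusted p = 2.50e-08 by edgeR), and it was 2.81 to 4.15 within experiments A to D.

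*Egr2*, the gene of the factor most often tied to T cell anergy, had 704.9, 697, 451.5 and 571 normalized counts in repeat DMSO libraries A to D. In single DMSO libraries A, B, C, D and F it had 98.0, 74.6, 170.8, 83.3 and 132.9. The groups did not overlap. Library C was the lowest of the repeat and the highest of the single group, and the log2 difference within experiment C was 1.39, against 2.75 to 3.19 in A, B and D. *Egr2* thus had a log2 fold change of 2.44 (SE 0.339, adjusted p = 1.06e-05 by edgeR).

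*Egr1*, the family's most widely used marker of recent signalling, had 2989, 2513, 3149 and 2835 normalized counts in repeat DMSO libraries A to D. The single DMSO libraries A, B, C, D and F had 516, 368, 2006, 754 and 400. The groups did not overlap, but the single DMSO library C stood well above the other 4. The log2 fold change was 1.83 (SE 0.448, adjusted p = 0.00215 by edgeR), and 2.49 without that library. Within experiments it was 0.65 in C and 1.91 to 2.77 in A, B and D.

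*Nab2*, the inducible corepressor, had 3350, 3862, 3634 and 4722 normalized counts in repeat DMSO libraries A to D and 1080, 1276, 1094, 858 and 1066 in single DMSO libraries A, B, C, D and F. Every repeat library was above every single library, by a log2 fold change of 1.86 (SE 0.145, adjusted p = 1.17e-08 by edgeR). *Nab1* had 4444, 4349, 4138 and 3690 normalized counts in the repeat DMSO libraries and 3713, 4034, 4117, 3835 and 3934 in the single DMSO libraries, so that the groups overlapped. Its log2 fold change was 0.08 (SE 0.0853, 95% interval -0.10 to 0.26, adjusted p = 0.436 by edgeR), which bounds any difference in *Nab1* well below those of the other 4 genes.

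With ibrutinib, repeat peptide stimulated cells had less *Nab2* RNA and no detectable difference in *Egr1* or *Egr2*. *Nab2* was 1.42-fold lower, *Egr3* had a fitted level 1.68-fold lower that missed the threshold, and *Nab1* had a fitted level 1.12-fold higher that also missed it. Of the 5 genes, 0 were called higher and 1 lower, where 4.01% of all tested genes were called higher and 1.92% lower. This fit does not use the pairing of libraries by experiment. With the experiment in the fit, *Egr3* was called lower as well (adjusted p = 0.0498 by edgeR), where 1694 of all tested genes were called in place of 726. The median log2 fold change was 0.01 over the 5 genes and 0.00 over all tested genes. The repeat DMSO libraries are shared with the comparison above.

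*Nab2* had 2693, 2691, 2628, 3216 and 2498 normalized counts in repeat ibrutinib libraries A, B, C, D and E. All 5 lay below the lowest repeat DMSO library, at 3350, and library D was the highest of its group under both treatments. For *Nab2* the log2 fold change was -0.50 (SE 0.142, 95% interval -0.80 to -0.21, adjusted p = 0.0403 by edgeR). It was lower in 4 of 4 experiments, by log2 differences of -0.31 in A, -0.52 in B, -0.47 in C and -0.55 in D. The call was lost when any of 7 of the 9 libraries was left out, with log2 fold changes of -0.57 to -0.39 and adjusted p of 0.0267 to 0.206 over the 9 omissions. The libraries whose omission ended it were B, C and D of repeat DMSO and A, B, C and E of repeat ibrutinib, and on TPM values tested with limma the adjusted p was 0.162.

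*Egr3* had 600.4, 741.7, 858.2, 704.6 and 526 normalized counts in repeat ibrutinib libraries A to E. All 5 were below all 4 repeat DMSO libraries, whose lowest had 1125. For *Egr3* the log2 fold change was -0.75 (SE 0.25, 95% interval -1.27 to -0.22, adjusted p = 0.0822 by edgeR). In experiments A, B, C and D it was -0.90, -0.68, -0.43 and -0.69. With the experiment as a block, which removes differences between experiments shared by the groups, the log2 fold change was -0.67 with adjusted p = 0.0498, and 2 of the 5 genes were called. DESeq2's Wald test gave -0.75 with adjusted p = 0.0341, and a fit of the repeat peptide groups alone -0.73 with adjusted p = 0.0166.

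*Egr1* had 1767, 2166, 4627, 2832 and 4362 normalized counts in repeat ibrutinib libraries A to E, a range that spans the repeat DMSO libraries. For *Egr1* the log2 fold change was 0.13 (SE 0.442, 95% interval -0.79 to 1.06, adjusted p = 0.896 by edgeR). Libraries C and E were above every repeat DMSO library and A and B below every one. *Egr2* had 486.4, 571, 740.7, 501.2 and 755.7, with a log2 fold change of 0.01 (SE 0.323, 95% interval -0.67 to 0.69, adjusted p = 0.988 by edgeR). Within experiments, *Egr1* was lower with ibrutinib in A and B, nearly equal in D (2832 beside 2835 normalized counts) and higher in C, by 0.56 on the log2 scale. *Egr2* was lower in A, B and D and higher in C, by 0.71. The sign of both changed with the block (-0.16 and -0.14), and both intervals reach to either side of 0.

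*Nab1* had 4547, 4708, 4726, 4533 and 4815 normalized counts in repeat ibrutinib libraries A to E. These 5 libraries were all above the highest repeat DMSO library, at 4444, and varied by 2.62% (coefficient of variation). The log2 fold change was 0.17 (SE 0.0855, 95% interval -0.01 to 0.35, adjusted p = 0.265 by edgeR), and *Nab1* was higher in 4 of 4 experiments by 0.03 to 0.30. On the TPM scale the groups overlapped, at 42.0 to 64.2 TPM with DMSO and 38.6 to 66.1 TPM with ibrutinib, and the log2 fold change was 0.04.

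**Figure D2:**
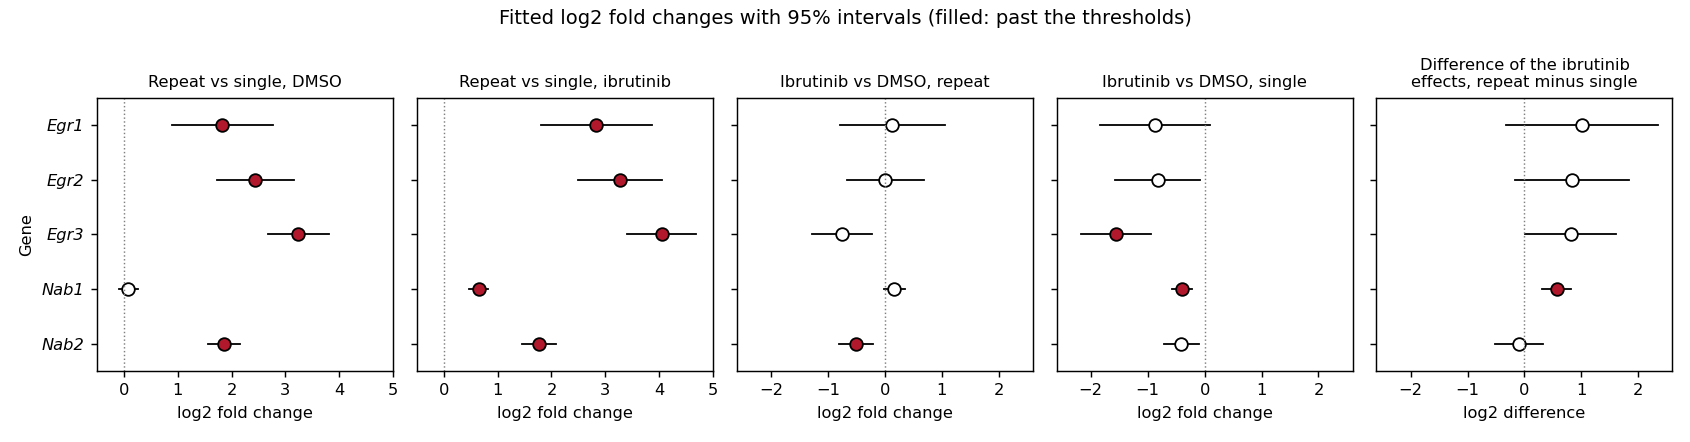
Fitted log2 fold changes (points) of the 5 genes with 95% intervals (lines) in 4 comparisons, and in the right panel the difference between the ibrutinib effects; filled points passed the thresholds. *Nab1* lies below 0 with ibrutinib in single peptide stimulated cells (-0.40), near 0.17 in repeat peptide stimulated cells, and its difference (0.56) is filled.

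In single peptide stimulated cells all 5 genes had lower fitted levels with ibrutinib, and *Egr3* and *Nab1* passed the test. *Egr3* was 2.95-fold lower and *Nab1* 1.32-fold lower. Of the 5 genes, 0 were called higher and 2 lower, where 0.351% of all tested genes were called higher and 2.69% lower. The median log2 fold change was -0.82 over the 5 genes and 0.01 over all tested genes.

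*Egr3* had 26.6, 54.3, 62.1 and 21.6 normalized counts in single ibrutinib libraries A to D, against 62.0 to 158.5 in the single DMSO libraries. The groups touched, since the highest ibrutinib library (C) and the lowest DMSO library (D) had nearly the same count. The log2 fold change was -1.56 (SE 0.292, adjusted p = 0.00698 by edgeR), and -0.73 to -2.49 within experiments. A fit of the single peptide groups alone gave -1.57 with adjusted p = 0.0712.

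*Nab1* had 2597, 3037, 3516 and 2781 normalized counts in single ibrutinib libraries A to D, all below the lowest single DMSO library, at 3713. For *Nab1* the log2 fold change was -0.40 (SE 0.086, adjusted p = 0.0161 by edgeR), with -0.52, -0.41, -0.23 and -0.46 in experiments A, B, C and D. The call was lost without single ibrutinib library A (adjusted p = 0.0745) or D (adjusted p = 0.0643), in the fit of the single peptide groups alone (adjusted p = 0.0641) and on log2(TPM + 1) (adjusted p = 0.254).

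The remaining 3 genes missed the threshold. *Egr1* had 223.8, 396.2, 831.8 and 314.3 normalized counts in single ibrutinib libraries A to D, with a log2 fold change of -0.87 (SE 0.459, adjusted p = 0.436 by edgeR), which was -0.21 without the single DMSO library C. *Egr2* had 35.1, 58.1, 129.8 and 27.7 normalized counts and a log2 fold change of -0.82 (SE 0.355, adjusted p = 0.296 by edgeR). Library C was the highest of the single ibrutinib group for both genes, and without it *Egr2* passed the test with -1.47 (adjusted p = 0.0109). *Nab2* had 939.6, 965.7, 741 and 585.4 normalized counts, lower than the DMSO library of the same experiment in 4 of 4, with a log2 fold change of -0.41 (SE 0.145, adjusted p = 0.17 by edgeR).

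Whether ibrutinib acted differently in the repeat and single peptide stimulated cells was tested as the difference between both log2 fold changes. Only *Nab1* among the 5 genes passed, with 0.56 (SE 0.121, 95% interval 0.31 to 0.82, adjusted p = 0.0237 by edgeR), where 1.04% of all tested genes were called higher. On log2 CPM, *Nab1* was higher with ibrutinib in 4 of 4 experiments after repeat peptide, by only 0.03 in A, and lower in 4 of 4 after single peptide. On the TPM scale experiment A went the other way after repeat peptide, at 64.2 TPM with DMSO and 57.2 TPM with ibrutinib. This call was lost without repeat DMSO library C (adjusted p = 0.0613), without single ibrutinib library D (adjusted p = 0.0555) and with an offset for effective length (0.52, adjusted p = 0.0754). With limma on log2(TPM + 1) and log2(TPM + 0.1) the adjusted p was 0.603 and 0.619. The differences of *Egr1* (1.00, SE 0.636), *Egr2* (0.84, SE 0.48) and *Egr3* (0.81, SE 0.382) had adjusted p of 0.621, 0.557 and 0.427. For *Nab2* the ibrutinib effects were close to each other, with a difference of -0.09 and a 95% interval of -0.52 to 0.33.

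Under ibrutinib all 5 genes were higher in repeat than in single peptide stimulated cells, in a comparison where 18.7% of all tested genes were called higher. Fitted log2 fold changes were 2.83 for *Egr1*, 3.28 for *Egr2*, 4.05 for *Egr3*, 0.65 for *Nab1* and 1.77 for *Nab2*, with adjusted p of at most 0.000154 by edgeR. *Egr3* was thus 16.6-fold higher in repeat ibrutinib than in single ibrutinib libraries. These values share their libraries with the comparisons above and add no independent replicate.

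Against single peptide stimulated cells in DMSO, ibrutinib-treated repeat peptide stimulated cells had higher levels of all 5 genes, where 16.7% of tested genes were called higher. *Egr3* was 5.62-fold higher (log2 2.49), *Egr2* 5.48-fold (2.45), *Egr1* 3.90-fold (1.96), *Nab2* 2.56-fold (1.35) and *Nab1* 1.19-fold (0.25). The groups overlapped for *Egr1*, where single DMSO library C lay above repeat ibrutinib library A. The fitted log2 fold changes of *Egr3* and *Nab2* over single DMSO were therefore 2.49 and 1.35 with ibrutinib beside 3.24 and 1.86 with DMSO. *Nab1*, which did not pass in repeat DMSO against single DMSO, passed here with adjusted p = 0.0209 by edgeR. That call was lost without single DMSO library A (adjusted p = 0.0512) and when the low-count filter was dropped or TPM values were tested with limma.

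The order of the groups by mean level was the same for *Egr1* and *Egr2*, with repeat ibrutinib and repeat DMSO at the top, then single DMSO and single ibrutinib. For both genes neither the upper nor the lower neighbours differed beyond their spread by the test, and the step between them passed it. For *Egr3* and *Nab2* repeat DMSO was highest, followed by repeat ibrutinib, single DMSO and single ibrutinib. Of these steps, the step between repeat DMSO and repeat ibrutinib did not pass for *Egr3*, and the step between single DMSO and single ibrutinib did not pass for *Nab2*. *Nab1* ran from repeat ibrutinib through repeat DMSO and single DMSO to single ibrutinib, and only its lowest step passed.

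Levels per gene length gave an order of the members that rests on the effective length estimated for each gene. That length was 1009 to 1078 bases for *Egr3*, 1900 to 2618 for *Egr2* and 2896 to 3262 for *Egr1*. By normalized counts *Egr1* (mean 2871) lay above *Egr3* (mean 1152) in repeat DMSO libraries, unlike by TPM. In repeat DMSO libraries the mean TPM was 75.6 ± 9.72 for *Nab2*, 50.8 ± 9.49 for *Nab1*, 44.9 ± 2.71 for *Egr3*, 39.3 ± 6.29 for *Egr1* and 10.0 ± 2.65 for *Egr2* (SD, n = 4). In single DMSO libraries *Nab1* led with 41.4 ± 4.85 TPM, ahead of *Nab2* (18.7 ± 4.29), *Egr1* (9.17 ± 7.34), *Egr3* (4.36 ± 1.80) and *Egr2* (1.71 ± 0.501; SD, n = 5). The NAB RNAs thus exceeded the summed EGR RNAs in the mean of every group. The exception among the 18 libraries was C of repeat ibrutinib, with an EGR sum of 102.7 TPM against a NAB sum of 101.3 TPM.

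**Figure D3:**
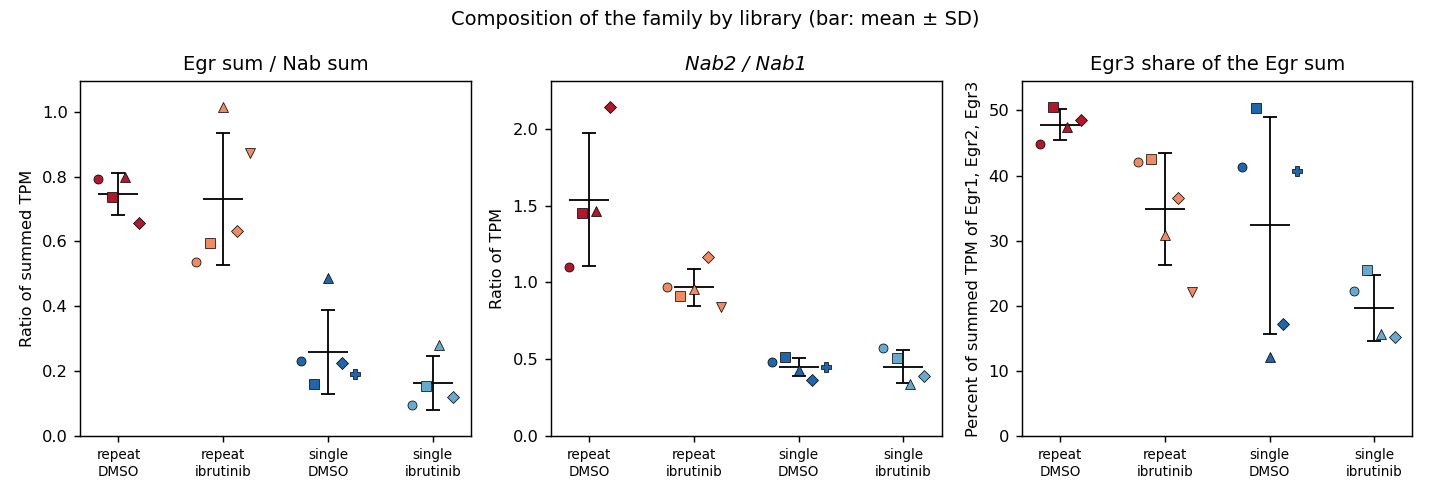
Ratio of the summed TPM of *Egr1*, *Egr2* and *Egr3* to that of *Nab1* and *Nab2* (left), ratio of *Nab2* to *Nab1* TPM (middle) and percent of the Egr sum that is *Egr3* (right) in each of 18 libraries; symbols are libraries with the experiment as shape, and bars are mean ± SD. The *Nab2* to *Nab1* ratio runs from 1.10 to 2.14 in repeat DMSO, 0.841 to 1.16 in repeat ibrutinib and is at most 0.572 in single peptide stimulated cells.

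The ratio of *Nab2* to *Nab1* TPM was 1.10, 1.45, 1.47 and 2.14 in repeat DMSO libraries A to D. With ibrutinib it was 0.970, 0.914, 0.955, 1.16 and 0.841 in repeat libraries A to E. In each of experiments A to D the ratio was lower with ibrutinib, although library D of the ibrutinib group was above library A of the DMSO group. In the single peptide groups it was 0.447 ± 0.0567 with DMSO (SD, n = 5) and 0.451 ± 0.108 with ibrutinib (SD, n = 4). The ratios are descriptions of the members' levels and were not tested.

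The ratio of the summed EGR to the summed NAB TPM was 0.746 ± 0.0651 in repeat DMSO (SD, n = 4) and 0.730 ± 0.204 in repeat ibrutinib libraries (SD, n = 5). It was 0.258 ± 0.131 in single DMSO (SD, n = 5) and 0.163 ± 0.0828 in single ibrutinib libraries (SD, n = 4). *Egr3* made up 44.9% to 50.5% of the EGR sum in repeat DMSO, 22.1% to 42.6% in repeat ibrutinib, 12.0% to 50.4% in single DMSO and 15.2% to 25.4% in single ibrutinib libraries. Repeat ibrutinib libraries all had a smaller *Egr3* share than any repeat DMSO library. *Egr2* was between 7.64% and 16.4% of the sum in all libraries.

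The members also differed in how much they varied between libraries of a group. The SD of log2 CPM (library-scaled counts) within groups was 0.727 for *Egr1*, 0.553 for *Egr2*, 0.465 for *Egr3*, 0.226 for *Nab2* and 0.11 for *Nab1*, beside a median of 0.259 over all tested genes. *Nab1* stood at percentile 4.75 of all tested genes by this measure and *Egr1* at percentile 88.8.

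The fourth EGR gene, *Egr4*, was close to silent. Its TPM ranged from 0 to 0.29 in repeat DMSO and single peptide libraries and reached 0.82 and 0.53 in repeat ibrutinib libraries C and E, with at most 34 counts in any library. Its mean normalized count lay below 50, so it could not be called. The log2 fold change was 1.18 (SE 0.69, adjusted p = 0.337 by edgeR) for ibrutinib in repeat peptide stimulated cells and 1.53 (SE 0.78, adjusted p = 0.105) for repeat against single DMSO. Libraries C and E of repeat ibrutinib were also the highest for *Egr1*.

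For each member the genes with the smallest root mean square (RMS) difference of log2 CPM over the 18 libraries were found, each gene centred on its own mean. The measure is not scaled by how much a gene varies. A gene that varies little can therefore rank as near without following the course of the member. *Egr1* was nearest to *Dusp6* (RMS 0.416), a phosphatase of ERK, then to *Cenph* (0.495) and *Gins2* (0.503), genes of the kinetochore and of DNA replication. *Egr2* was nearest to *Litaf* (0.468), *Rasgef1a* (0.511), an exchange factor of RAS proteins, and *Egr1* (0.518). *Egr3* was nearest to *Bspry* (0.428), *Nr4a1* (0.451), a nuclear receptor induced by T cell receptor signals, and *Itih5* (0.46). *Nab1* was nearest to *Eif4e3* (0.131), *Unc119b* (0.146) and *Prr13* (0.148). *Nab2* was nearest to *Ybx3* (0.265), a cold shock protein, *Stk39* (0.267), a kinase, and *Nfil3* (0.291), a transcription factor.

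The median RMS difference over all tested genes was 1.46 for *Egr1*, 1.61 for *Egr2*, 1.96 for *Egr3*, 0.457 for *Nab1* and 1.01 for *Nab2*, so that these distances can only be read within a member. The libraries share their groups and experiments, and the distances are a description. After the group means were removed, *Dusp6* remained the nearest gene to *Egr1* (RMS 0.327), whereas the nearest genes to the others were *Bspry* for *Egr2* (0.289), *Gm14288* for *Egr3* (0.245), *Rragc* for *Nab1* (0.067) and *2310033P09Rik* for *Nab2* (0.118). Among the members themselves, *Egr1* was nearest to *Egr2* (RMS 0.518). *Egr3* was nearest to *Egr2* (0.646) and farthest from *Nab1* (1.73). Without the group means, *Egr1* remained nearest to *Egr2* (0.462), but *Egr3* was nearest to *Nab2* (0.358) and farthest from *Egr1* (0.73). The SD within groups was 0.465 for *Egr3*, 0.226 for *Nab2* and 0.727 for *Egr1*, so these places may reflect how much each gene varies.

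The surroundings of the family were described with 6 lists of genes, chosen with earlier results of these data known. The counts of called genes in a list are therefore descriptions, and no list was tested against all genes. Of 5 relatives and partners of EGR proteins, 4 could be tested and *Wt1* had at most 10 counts. In repeat against single DMSO 3 were called higher, *Ddx20* (log2 fold change 0.73, adjusted p = 2.92e-06 by edgeR), *Wwp2* (0.60, adjusted p = 3.32e-05) and *Hcfc1* (0.44, adjusted p = 0.0206), and 0 lower. DDX20 is a helicase that binds EGR factors and WWP2 a ubiquitin ligase. The list's median log2 fold change was 0.67, where 22.8% of all tested genes were called higher and 24.2% lower. With ibrutinib in repeat peptide stimulated cells *Ddx20* was called lower (-0.38, adjusted p = 0.015 by edgeR; mean normalized counts 1417 with DMSO and 1087 with ibrutinib), a call lost without repeat DMSO D (adjusted p = 0.0642) and under 5 of 11 alternative settings (adjusted p up to 0.165). The list's median was -0.19, where 4.01% of all tested genes were called higher and 1.92% lower. After single peptide 0 of the 4 were called with ibrutinib, at a median of -0.08, beside 0.351% of all tested genes called higher and 2.69% lower.

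Of 11 genes of the route from ERK to the EGR genes, all tested, 2 were called higher and 4 lower in repeat against single DMSO, with a median log2 fold change of 0.00, where 22.8% and 24.2% of all genes were called. The rises were in *Elk3* (1.39, adjusted p = 4.17e-09 by edgeR), a partner of serum response factor, and *Mapk3* (1.15, adjusted p = 1.94e-07), which encodes ERK1. The largest falls were in *Mrtfa* (-1.41, adjusted p = 2.13e-05) and *Elk4* (-1.05, adjusted p = 2.14e-05), which encode other partners of that factor. *Srf* itself fell by 0.65 on the log2 scale. With ibrutinib in repeat peptide stimulated cells *Elk3* fell (-0.53, adjusted p = 0.00313 by edgeR), and 1 of the 11 was called in all (median -0.03), or 3 with the replicate block. The fit without the block called 4.01% of all tested genes higher and 1.92% lower. After single peptide 0 were called with ibrutinib, at a median of 0.07, beside 0.351% of all tested genes called higher and 2.69% lower.

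Of 15 other immediate early genes, all tested, 4 were called higher and 4 lower in repeat against single DMSO (median -0.18), shares near the 22.8% and 24.2% over all genes. *Atf3* (5.29, adjusted p = 1.19e-06 by edgeR) and *Nr4a2* (4.27, adjusted p = 5.12e-12) rose most, beside *Nr4a3* and *Nr4a1*. *Jun* (-2.21, adjusted p = 1.84e-05) and *Zfp36* (-1.04, adjusted p = 0.0322), the gene of an mRNA destabilizing protein, fell most. *Fos* and *Fosb*, which form AP-1 with JUN, were not called. Their log2 fold changes were -0.85 (SE 1.71) and -0.84 (SE 1.79), too imprecise to give a direction. The call of *Zfp36* was lost without repeat DMSO library A, B or D or single DMSO library C (log2 fold changes of -1.32 to -0.66 and adjusted p of 0.0163 to 0.127 over 9 omissions) and under 3 of 11 alternative settings (adjusted p up to 0.0872).

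Under ibrutinib, repeat peptide stimulated cells had 1 of the 15 called higher and 4 lower (median 0.03), beside 4.01% and 1.92% of all tested genes. *Atf3* (-2.07, adjusted p = 0.0178 by edgeR) and *Nr4a1* (-1.42, adjusted p = 0.00823) fell most, and *Nr4a3* (-1.32) and *Nr4a2* (-0.84) were also called. *Jun* rose (1.32, adjusted p = 0.0147), from a mean of 1231 normalized counts with DMSO to 3086. Leaving out 1 library ended the call of *Atf3* for repeat DMSO C or D or repeat ibrutinib A (adjusted p up to 0.0975) and that of *Jun* for repeat DMSO D (adjusted p = 0.0552). In single peptide stimulated cells *Nr4a3* (-1.73), *Nr4a1* (-1.50) and *Nr4a2* (-1.14) were called lower and *Btg2* (0.53), an inhibitor of proliferation, higher (list median -0.08), with adjusted p of 0.00185, 0.0243, 0.00247 and 0.0378 by edgeR. These 4 were chosen after their values were seen, in a comparison where 0.351% of all tested genes were called higher and 2.69% lower. The call of *Nr4a1* was lost without single DMSO C or single ibrutinib A or D (adjusted p up to 0.108) and under 3 of 11 alternative settings, and that of *Btg2* without any of 7 of the 9 libraries, all but single DMSO F and single ibrutinib C (adjusted p up to 0.229), and under 4 of 11 settings (adjusted p up to 0.683). *Nr4a2* was not called with limma on log2(TPM + 1) (adjusted p = 0.105).

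**Figure D4:**
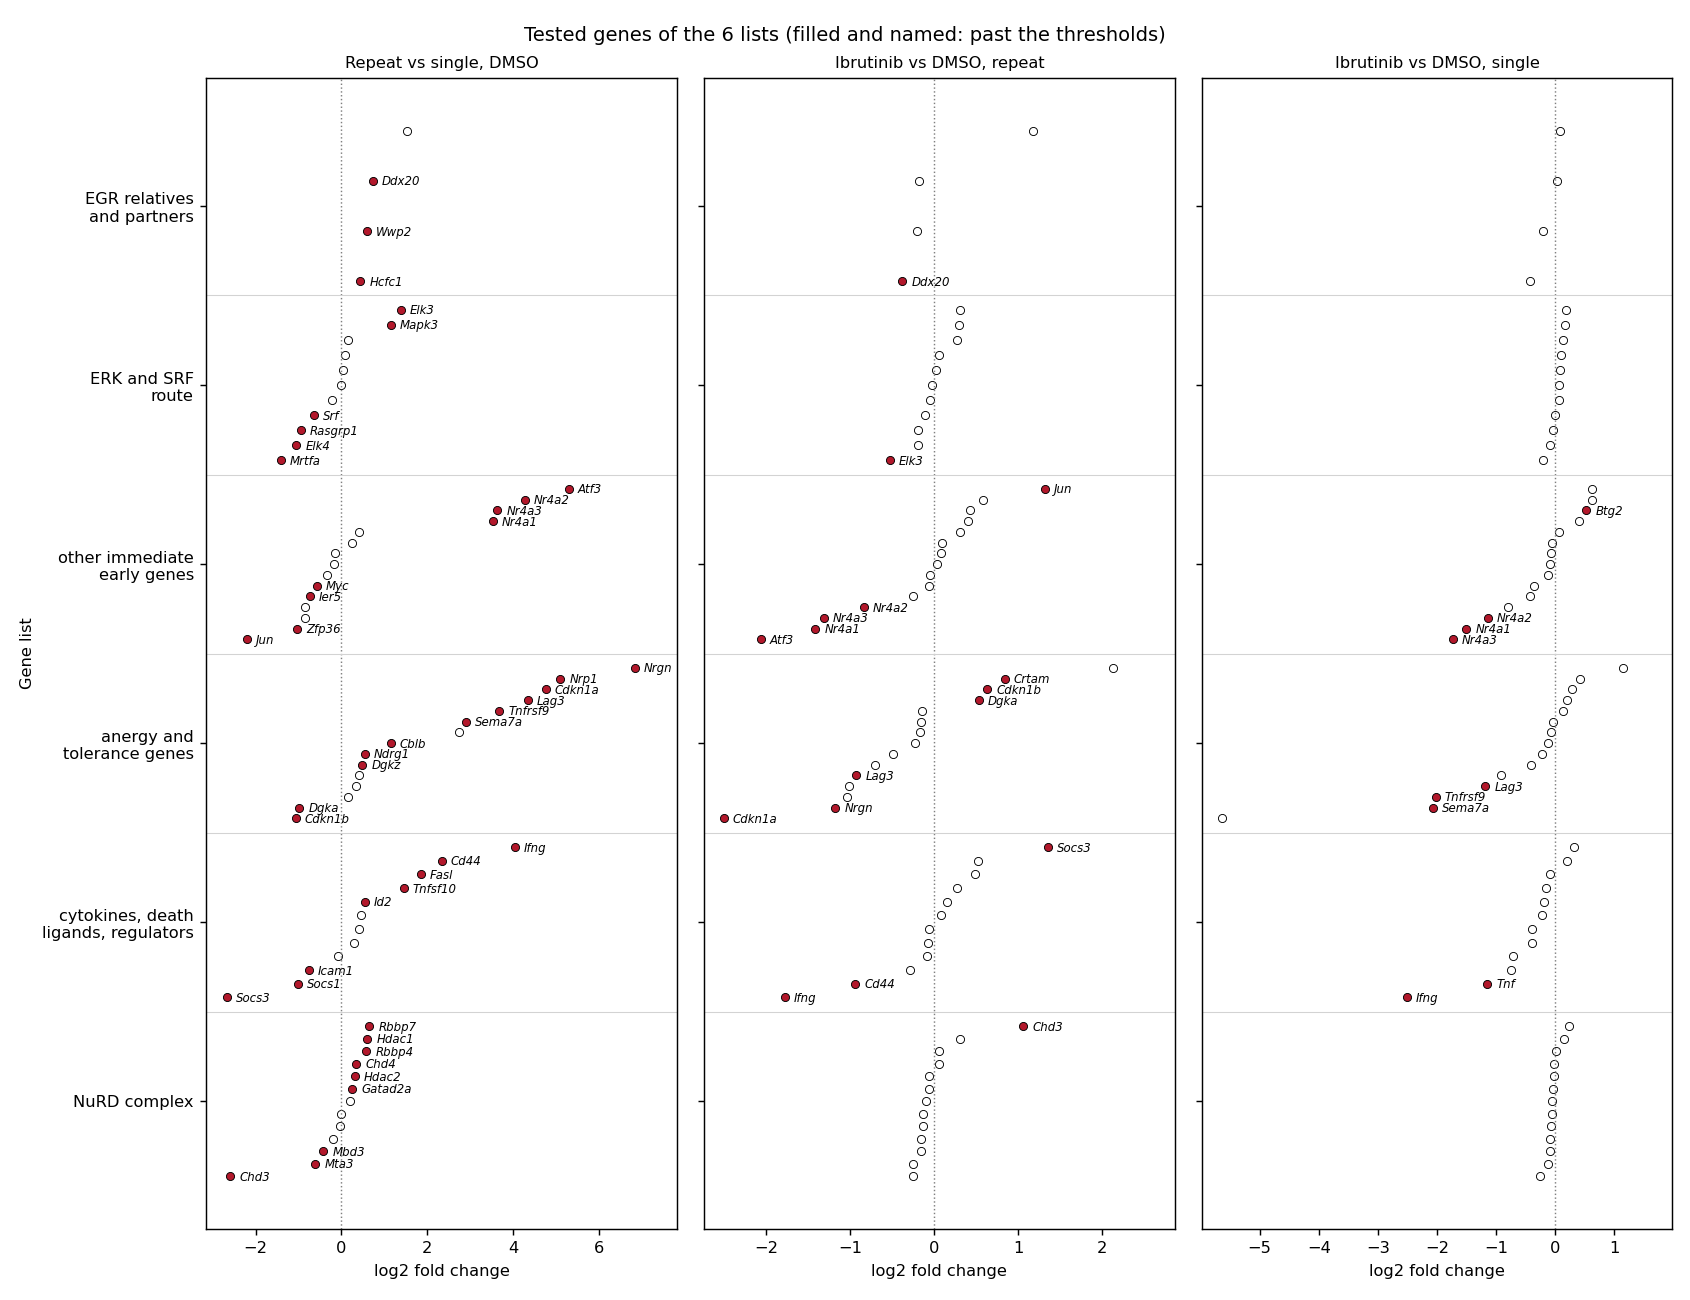
Log2 fold changes of the tested genes of 6 lists (rows) in 3 comparisons (panels, with separate axes); each circle is a gene, and filled, named circles passed the thresholds. In the anergy list 9 circles are filled to the right of 0 in repeat against single DMSO (left), and 3 are filled on each side of 0 with ibrutinib in repeat peptide stimulated cells (middle).

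Of 15 genes of anergy and tolerance described under EGR2 or EGR3, all tested, 9 were called higher and 2 lower in repeat against single DMSO, with a median log2 fold change of 1.15, where 22.8% of all genes were called higher and 24.2% lower. *Nrgn* (6.84, adjusted p = 1.64e-11 by edgeR), which encodes a calmodulin binding protein, and *Nrp1* (5.10, adjusted p = 5.92e-09), which encodes a coreceptor, rose most. *Lag3*, the gene of an inhibitory receptor, rose by 4.34 and *Tnfrsf9*, the gene of the costimulatory receptor 4-1BB, by 3.67. *Cdkn1b* (-1.07, adjusted p = 1.18e-05), an inhibitor of the cell cycle, and *Dgka* (-0.98, adjusted p = 1.56e-06), which removes diacylglycerol, fell. *Cblb*, a ubiquitin ligase of anergy, rose by 1.15.

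With ibrutinib in repeat peptide stimulated cells 3 of the 15 were called higher and 3 lower (median -0.23), beside 4.01% and 1.92% of all tested genes. *Cdkn1a* (-2.51, adjusted p = 0.00242 by edgeR), *Nrgn* (-1.18, adjusted p = 0.00507) and *Lag3* (-0.93, adjusted p = 0.00887) were lower. *Crtam* (0.84, adjusted p = 0.0109), *Cdkn1b* (0.63, adjusted p = 0.0144) and *Dgka* (0.53, adjusted p = 0.00791) were higher. *Cdkn1b* was not called without repeat DMSO C or D (adjusted p up to 0.0655) or under 3 of 11 alternative settings (adjusted p up to 0.174), and with the replicate block 9 of the 15 were called in all. After single peptide 3 were called lower with ibrutinib, *Sema7a* (-2.07, adjusted p = 0.0255), *Tnfrsf9* (-2.02, adjusted p = 0.00592) and *Lag3* (-1.18, adjusted p = 0.00698), and 0 higher, with 6 called in all under the replicate block and a median of -0.12. The call of *Sema7a* was lost without single DMSO A or C or single ibrutinib A, C or D (adjusted p up to 0.0968) and under 2 of 11 settings (adjusted p up to 0.673). Its mean normalized counts were only 22.5 in single DMSO and 5.2 in single ibrutinib libraries, both below the minimum mean count of a call. *Sema7a* met that minimum, taken over all libraries, through repeat DMSO (170.1) and repeat ibrutinib (103.8), so its fall after single peptide rests on few counts. *Lag3* was called lower under ibrutinib in both stimulations.

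Of 13 cytokines, death ligands and regulators described under EGR or NAB proteins, 12 were tested and *Il2* had at most 4 counts. In repeat against single DMSO 5 were called higher and 3 lower (median 0.42), beside 22.8% and 24.2% of all genes. *Ifng* (4.04, adjusted p = 7.94e-06 by edgeR) and *Cd44* (2.34, adjusted p = 8.44e-08) rose most, followed by the death ligand genes *Fasl* (1.85) and *Tnfsf10* (1.45), the latter known as a gene that NAB proteins restrain in T cells. *Socs3* (-2.67, adjusted p = 3.71e-07) and *Socs1* (-1.02, adjusted p = 0.00123), inhibitors of cytokine signalling, fell most. With ibrutinib in repeat peptide stimulated cells *Ifng* (-1.78, adjusted p = 0.036 by edgeR) and *Cd44* (-0.94, adjusted p = 0.00972) were lower and *Socs3* higher (1.35, adjusted p = 0.0043). The median was 0.01 over the list, where 4.01% of all tested genes were called higher and 1.92% lower. *Ifng* was not called without repeat DMSO C or D or repeat ibrutinib A, B or C (adjusted p up to 0.155) or under 2 of 11 settings (adjusted p up to 0.0978), and *Cd44* not in the repeat peptide groups alone (adjusted p = 0.0508). *Fasl* and *Tnfsf10* had log2 fold changes of -0.06 and -0.29 there and were not called. Among single peptide libraries *Ifng* (-2.51, adjusted p = 0.0494) and *Tnf* (-1.15, adjusted p = 0.00655) were lower, with 2 called in all, or 5 with the replicate block, and a list median of -0.30. Leaving out any of 8 of the 9 libraries, all but single DMSO B, ended the call of *Ifng* (adjusted p up to 0.18), as did 5 of 11 settings (adjusted p up to 0.195). Mean normalized counts of *Ifng* were 46.1 in single DMSO and 8.0 in single ibrutinib libraries, both below the minimum mean count of a call. *Ifng* met that minimum, taken over all libraries, through repeat DMSO (756.3) and repeat ibrutinib (219.2), so its fall after single peptide rests on few counts.

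Of 13 genes of the NuRD complex, all tested, 6 were called higher and 3 lower in repeat against single DMSO (median 0.20), where 22.8% of all genes were called higher and 24.2% lower. Only 1 of these 9 had an absolute log2 fold change above 1. *Rbbp7* (0.65, adjusted p = 0.000468 by edgeR) and *Hdac1* (0.60, adjusted p = 7.17e-05) rose most. *Chd3*, the gene of a remodelling ATPase of the complex, fell by 2.59 on the log2 scale (adjusted p = 3.21e-08), from a mean of 23950 normalized counts in single to 3966 in repeat DMSO libraries, and *Mta3* followed (-0.61, adjusted p = 3.17e-05). *Chd4*, the other ATPase gene, rose by 0.35. With ibrutinib in repeat peptide stimulated cells *Chd3* was the only gene of the complex called, higher by 1.06 (adjusted p = 0.00439) at a mean of 8255 normalized counts, and 2 were called with the replicate block. *Chd3* was not called with limma on TPM values (adjusted p up to 0.0755). The list's median was -0.10, where 4.01% of all tested genes were called higher and 1.92% lower. After single peptide 0 of the 13 were called with ibrutinib, and the median was -0.05, beside 0.351% of all tested genes called higher and 2.69% lower.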

How the data were processed

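RNA-seq was measured in 18 libraries, grouped by the treatment and condition in the labels. The authors trimmed reads with Trim Galore, mapped them to GRCm38 with RSEM 1.3.1 and STAR, and deposited for each library expected counts (estimated counts per gene, not normalized), TPM and effective lengths per gene (SAMtools 1.10, R 4.0.3 and DESeq2 1.30.0 are also in the submitters' processing notes). The deposited TPM values are relative to gene length and to the library.

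Expected counts were rounded to whole numbers. Of 45706 genes, 45143 matched GENCODE M21 by identifier, and 27903 protein-coding or lncRNA genes, holding 98.5% of the counts, were kept, as in the study. In R 4.3.3 with edgeR 4.0.16, the 12255 genes passing filterByExpr were TMM normalized and fitted with glmQLFit (robust) in a single model of the 4 groups, without a block. glmQLFTest was two-sided, with Benjamini-Hochberg adjustment. A call needed an adjusted p under 0.05, an absolute log2 fold change above 0.2 and a mean over all libraries of 50 normalized counts or more. Log2 CPM used a prior count of 2. Every neighbouring pair of groups in an order of levels is a fitted comparison, and the steps were judged by the fit. Two-sided exact permutation tests on mean log2 CPM, not adjusted over genes, were also run. Of steps not passing the fit, exact p was 0.0159 for *Egr3* and 0.00794 for *Nab1* between the repeat groups. It was 0.0318 for *Nab2* between the single groups and at least 0.0873 at the remaining such steps.

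Members and gene lists were chosen with earlier results of these data known. Named list genes were, for repeat ibrutinib against repeat DMSO and repeat DMSO against single DMSO, up to 2 called genes with the largest rise and 2 with the largest fall per list; others are named as examples chosen after their values were seen. Promoter windows come from RefSeq (GRCm38.p6).

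Libraries of the same experiment pair the groups, with the experiment taken from the genotype entry. All 24 same-experiment pairs of deviations from the group means correlated above 0.1 (0.137 to 0.743, median 0.556). Of the other 97 pairs, 26 were above 0.1 (-0.684 to 0.624, median -0.197). No library was a copy of another: in 32 pairs within groups the chi-square statistic divided by its degrees of freedom was 27.9 to 218. The tests rest on the spread between libraries, which includes counting error; how much each adds for the members was not tested. The scripts were tested on simulated data. Alternatives were DESeq2 1.42.0 size factors and Wald test, no filter on low counts, no minimum mean count, a stricter threshold of 1 on the absolute log2 fold change, effective length as an offset, all gene types, only the compared groups, the experiment as block, limma 3.58.1 on log2(TPM + 1) and log2(TPM + 0.1), and each library left out. For the list genes these were chosen after seeing the data. The level of 1 cell type marker is not reported here.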

Additional observations from a re-analysis of the deposited data

Results flagged for a closer look

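*Egr1* in single DMSO library C had 2006 normalized counts, and the next highest library of that group had 754. The gap to its nearest neighbour was large for the range of the group. *Nab2* in repeat ibrutinib library D had 3216 normalized counts, with the next highest at 2693, and stood apart in the same way. In all, 2 of 20 combinations of gene and group stood apart, where chance alone gives about 1 in 20.

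The log2 fold changes of *Nab1* with ibrutinib differed between repeat and single peptide stimulated cells, by 0.56 in the test of the difference itself.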

How the results depend on the processing

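The 4 higher calls in repeat against single DMSO held under all 11 alternatives and without each library. With ibrutinib in repeat peptide stimulated cells 1 of the 5 genes was called, but 0 with no filter on low counts (*Nab2* -0.485), with an absolute log2 fold change above 1 (*Nab2* -0.503) and with limma on log2(TPM + 1) (*Nab2* -0.583) or log2(TPM + 0.1) (*Nab2* -0.592). It was 2 in the fit of the compared groups alone (*Egr3* -0.727), with the replicate block (*Egr3* -0.671) and with DESeq2's Wald test (*Egr3* -0.752). *Egr1* and *Egr2* changed sign there to -0.162 and -0.143 with the block, -0.067 and -0.066 with limma on log2(TPM + 1), and -0.07 each on log2(TPM + 0.1). Single omissions gave 0 to 1 calls, with -0.568 to -0.386 for *Nab2*, -0.046 to 0.297 for *Egr1* and -0.107 to 0.096 for *Egr2*.

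In single peptide stimulated cells 2 genes were called, 1 with a log2 fold change above 1 (*Nab1* -0.396) and with limma (*Nab1* -0.457 and -0.469 in the same order), and 0 in the fit of the compared groups alone (*Egr3* -1.566, *Nab1* -0.398). Single omissions gave 1 to 3 calls, with -0.496 to -0.35 for *Nab1* and -1.469 to -0.594 for *Egr2*. The difference between the ibrutinib effects of *Nab1*, the 1 call there, became 0 calls with a threshold of 1 (0.564), the length offset (0.517) and limma (0.498 and 0.511). Single omissions gave 0 to 1 calls, with 0.528 to 0.673 for *Nab1* and -0.199 to 0.04 for *Nab2*, which was above 0 without repeat DMSO D or single ibrutinib A or B. The block changed no other call of the 5 genes. The cause of these changes was not tested.

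Over all genes, calls with ibrutinib in repeat peptide stimulated cells numbered 726 (67.6% higher), against 1694 with the block, 1118 with DESeq2, 464 in the compared groups alone, 237 above a log2 fold change of 1, and 391 (37.1% higher) or 272 (53.7% higher) with limma. In single peptide stimulated cells there were 373 (11.5% higher), against 1114 (30.5% higher) with the block, 602 with DESeq2, 181 in the compared groups alone, 202 (0.5% higher) above 1, and 161 or 241 with limma. In repeat against single DMSO 5765 (48.6% higher) compared with 4330 (71.6% higher) with limma and 1994 above 1. The TPM scale moved the median log2 fold change of all genes to 0.136 or 0.17 in repeat against single DMSO and to -0.09 or -0.109 with ibrutinib in repeat peptide stimulated cells.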
